A study of Caenorhabditis elegans with 10 samples.

Results

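The astacins are secreted zinc metalloproteases, and the nematode Caenorhabditis elegans names most of its own nas, for nematode astacin, followed by a number. All rows of the count tables with such a name were taken, 36 of 20222 genes, by name alone and without regard to level or change. An astacin is made as an inactive precursor, and its catalytic domain holds a zinc ion that cuts peptide bonds once the propeptide is removed. Family members elsewhere in the animal kingdom digest food, free the embryo from its envelope, trim procollagens or release BMP ligands from their inhibitors. In C. elegans the best known roles lie in the cuticle: at each moult a new cuticle is laid down under the old one, and NAS-36 and NAS-37 act in shedding the old one, whereas NAS-6 and NAS-7 act in the pharyngeal grinder.

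RNA came from whole dauers, the arrested and non-feeding larval stage, of 2 genotypes with 5 libraries each. The chd-7;daf-2 dauers, the double mutants, carried chd-7(gk290), a deletion in the gene for the chromatin-remodelling ATPase CHD-7, together with daf-2(e1370). The daf-2 dauers carried daf-2(e1370) alone, a temperature-sensitive allele of the insulin-like receptor gene. Both genotypes therefore became dauers through reduced insulin signalling, from synchronized eggs held at 25°C over 10 days, and no wild-type dauers are among the groups. The title of the series concerns regulation of TGF-beta pathways by CHD-7, and the comparison made here is chd-7;daf-2 over daf-2.

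Each library held 7331885 to 14997608 reads assigned to genes. Levels are given in CPM, the reads of a gene per 1000000 reads on TMM-scaled library sizes. A gene was tested if it passed a filter on low counts near 0.897 CPM, and it was called at an adjusted p under 0.05 in edgeR's quasi-likelihood test over all 12499 tested genes. The labels do not state that the libraries are from different cultures, so the p-values reflect the spread among libraries, which may be technical. That spread was uneven. Between 2 libraries it was measured as chi-square per degree of freedom. It was 4.04 for daf-2 replicates 4 and 5, 5.91 for double mutant replicates 1 and 2, and 6.97 for 3 and 4. The other pairs within a genotype had 17.2 to 72.8, so the 5 libraries may not be equally independent. The gene chd-7 itself had 234 to 283 CPM in the double mutants and 207 to 263 CPM in daf-2, and since a count over a whole gene also takes reads from outside a deletion, it does not check the labels. All 7 dauer-associated marker genes examined had reads in all 10 libraries. The presence of reads does not check the stage, and cut-1 among them ran from 0.327 to 26.5 CPM by library. The libraries of chd-7;daf-2 replicate 4 and of daf-2 replicates 2 and 3 were also left out together. Earlier results of these data describe them as standing apart in germline and yolk transcripts, and they are named so below. In the germline marker gld-1 the daf-2 pair did not go together. Replicate 2 had 26.6 CPM and replicate 3 had 83.8 CPM, against 33.3 to 48.3 CPM in the other daf-2 libraries. Yolk genes were not among the genes examined here. In whole animals, fewer cells of a type and less RNA per cell cannot be told apart.

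Of the 36 members, 14 passed the filter and 22 did not. Of those 14, 12 were above the filter level in all 10 libraries, while nas-30 was above it in 5 double mutant and 4 daf-2 libraries and nas-33 in 4 double mutant libraries and 1 daf-2 library. Per kilobase of exonic length, in the annotation of WBcel235 by Ensembl, nas-9 stood highest in chd-7;daf-2 with 113.8 ± 47.1 CPM per kb (SD, n = 5), followed by nas-10 with 43.6 ± 12.8, nas-11 with 41.4 ± 12.0 and nas-31 with 17.8 ± 2.61. In daf-2 the order was another: nas-10 stood highest with 102.3 ± 9.84 CPM per kb, followed by nas-31 with 14.4 ± 3.89, nas-11 with 11.4 ± 4.94 and nas-32 with 9.07 ± 3.63, and nas-9 was the sixth with 6.11 ± 3.24. The neighbours nas-10 and nas-11 in the first order lie within each other's spread. So do nas-31 and nas-11, and nas-11 and nas-32, in the second, while nas-31 was above nas-32 in every daf-2 library.

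**Figure D1:**
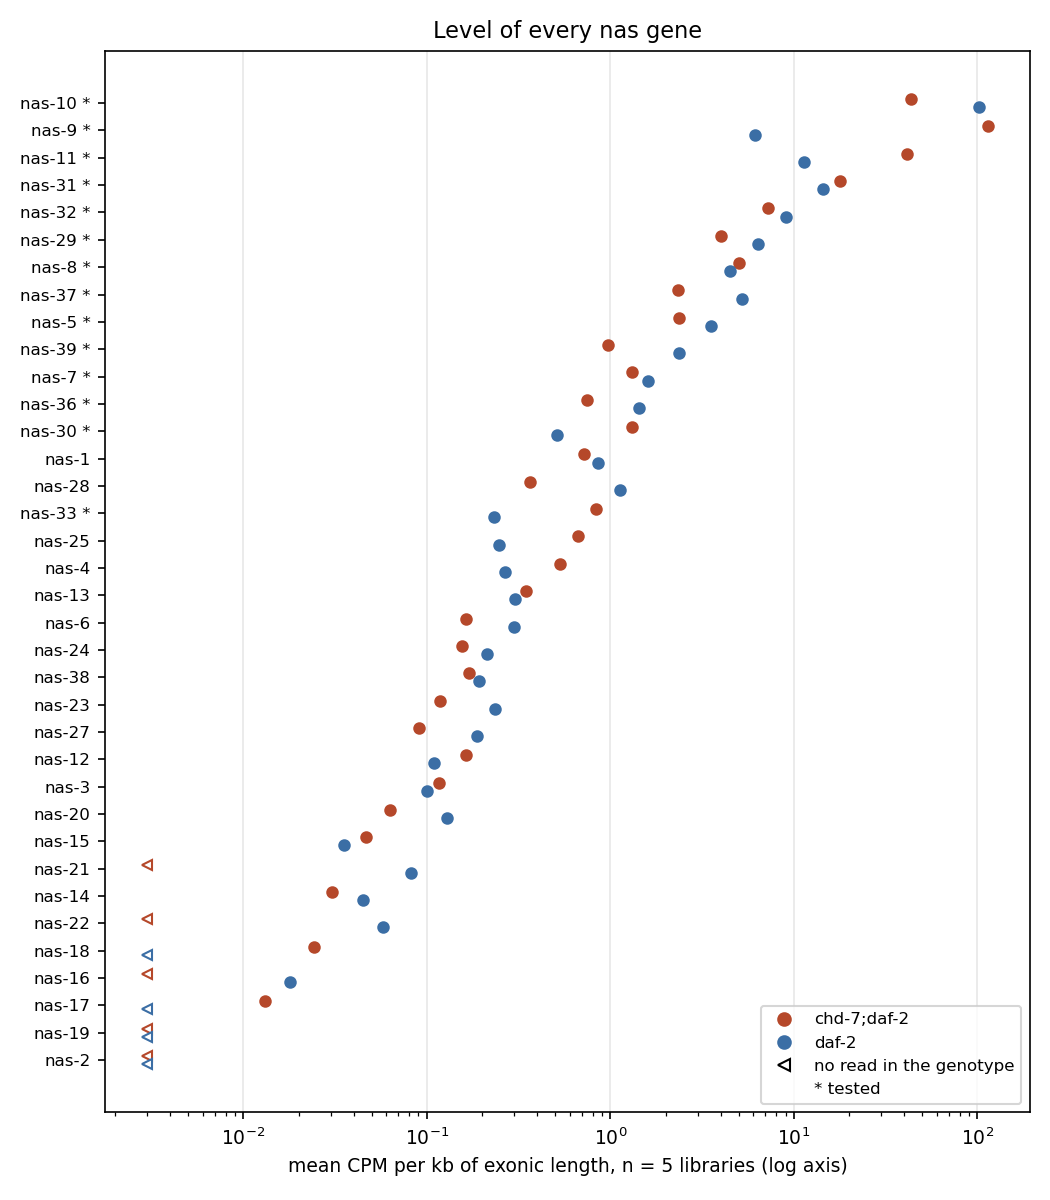
Mean CPM per kb of exonic length for each of the 36 nas genes in chd-7;daf-2 and daf-2 dauers (5 libraries each, log axis), ordered by the mean over all libraries, with an asterisk on the 14 tested genes. The top 3 are nas-10, nas-9 and nas-11, and nas-9 shows a wide gap between genotypes, at 113.8 in chd-7;daf-2 and 6.11 in daf-2.

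Of the 36 members, 4 rose and 5 fell in chd-7;daf-2, 25% of all members and 64.3% of the 14 that were tested. Over all tested genes the called share was 36.2%, with 17.9% higher and 18.3% lower. The members that rose were nas-9, nas-11, nas-30 and nas-33, and those that fell were nas-10, nas-29, nas-36, nas-37 and nas-39. The median log2 fold change over the 14 tested members was -0.30, against -0.03 over all tested genes. The 5 double mutant libraries lay wholly above the 5 daf-2 libraries in nas-9 and nas-11, as they did in 12.7% of all tested genes, and wholly below them in nas-10 and nas-39, as in 10.0% of all tested genes. One or the other separation held in 22.7% of all tested genes.

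**Figure D2:**
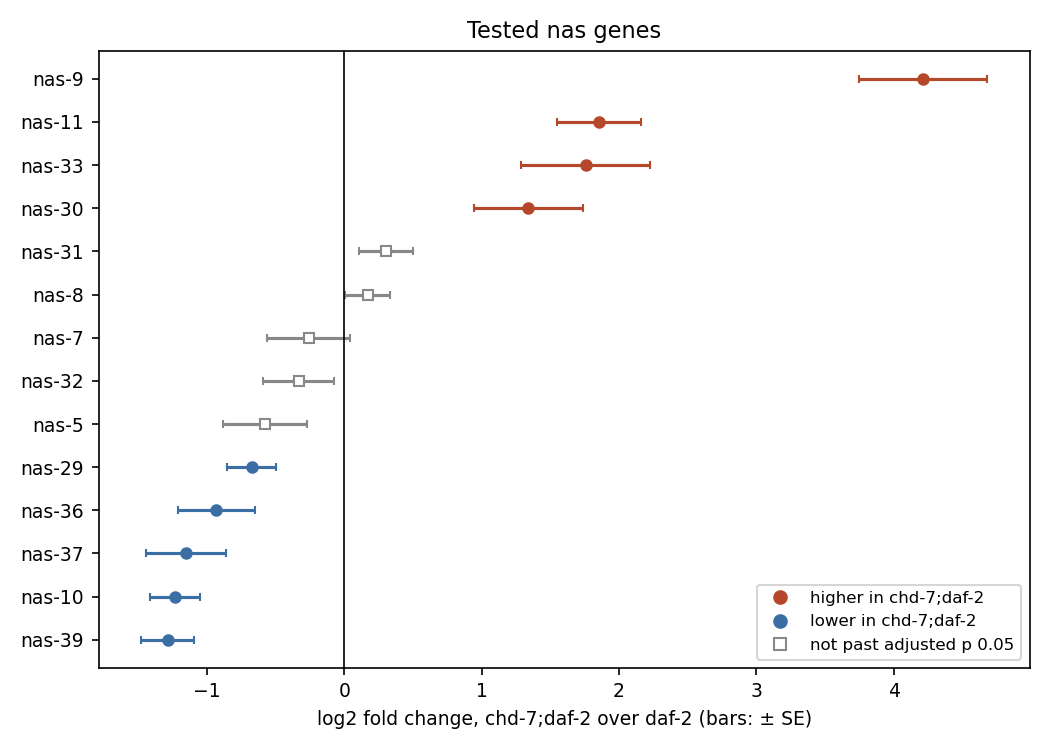
Log2 fold change of the 14 tested nas genes, chd-7;daf-2 over daf-2, with bars for ± SE; filled circles are called at an adjusted p under 0.05 and open squares are not. The values run from 4.22 for nas-9 to -1.29 for nas-39.

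The cuticle-shedding proteases come first by role. The gene nas-37, whose product acts in ecdysis, the shedding of the old cuticle at a moult, lies on the minus strand of chromosome X from 9944844 to 9949063. It had 3.86, 3.64, 5.39, 6.32 and 10.3 CPM in chd-7;daf-2 replicates 1 to 5, against 8.62, 12.57, 13.6, 17.97 and 13.4 CPM in daf-2 replicates 1 to 5. Only double mutant replicate 5 reached into the daf-2 range, and only above daf-2 replicate 1. It fell (log2 fold change -1.15 ± 0.29 SE, edgeR adjusted p = 0.0103).

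The gene nas-36, whose product acts beside NAS-37 in ecdysis, lies on chromosome I from 7527224 to 7531715 and was read at a lower level. It had 1.84, 1.27, 1.30, 1.31 and 2.68 CPM in chd-7;daf-2, against 2.13, 3.93, 3.94, 3.66 and 2.62 CPM in daf-2. Again double mutant replicate 5 lay inside the daf-2 range, and the other 4 double mutant libraries lay under every daf-2 library. It fell (log2 fold change -0.93 ± 0.28, edgeR adjusted p = 0.0239). This call did not hold without double mutant replicate 2 or 3 or without daf-2 replicate 2 or 3 (adjusted p of 0.0504 to 0.0591).

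The gene nas-38, which is tied to moulting and to the quiescence that goes with it, was not tested. It had 0.527, 0.454, 0.372, 0 and 0.589 CPM in chd-7;daf-2, against 0.256, 0.785, 0.0915, 0.691 and 0.393 CPM in daf-2. The genotypes overlapped over most of their range. It averaged 0.388 ± 0.232 CPM in the double mutants and 0.443 ± 0.292 CPM in daf-2 (SD, n = 5 each), with at most 10 reads in a library, so no difference was detectable at this depth. Per kilobase of exonic length, nas-37 averaged 2.33 ± 1.07 CPM in the double mutants and 5.20 ± 1.31 CPM in daf-2, while nas-36 averaged 0.743 ± 0.269 CPM in the double mutants and 1.44 ± 0.366 CPM in daf-2. On the same scale nas-38 averaged 0.169 ± 0.101 CPM in the double mutants and 0.193 ± 0.127 CPM in daf-2. The moulting proteases were thus read in the order nas-37, nas-36, nas-38 in both genotypes.

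The gene nas-39 encodes the member most like tolloid and BMP-1, the astacins that in flies and vertebrates cut procollagen and free BMP ligands from chordin-type inhibitors. It lies on chromosome X from 16456927 to 16471333. It had 2.98, 3.45, 3.90, 3.05 and 3.54 CPM in chd-7;daf-2, against 6.06, 9.82, 10.8, 7.26 and 7.46 CPM in daf-2. The genotypes did not overlap, and the double mutant libraries were close to one another. It fell (log2 fold change -1.29 ± 0.19, edgeR adjusted p = 0.000558). Of its 3480 exonic bases, 276 are shared with F38E9.1 on the same strand, and reads there cannot be assigned to either gene.

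The widest change in the family was in nas-9, on the minus strand of chromosome V from 4836027 to 4840013, which shares no exonic base with another annotated gene. It had 268, 272, 235, 183 and 67.3 CPM in chd-7;daf-2 replicates 1 to 5, against 9.30, 16.3, 18.03, 5.53 and 5.89 CPM in daf-2 replicates 1 to 5. All double mutant libraries were above all daf-2 libraries, but replicate 5 was far under the other 4. It rose (log2 fold change 4.22 ± 0.47, edgeR adjusted p = 0.000104), with a log2 fold change of 4.43 without double mutant replicate 5. The daf-2 level rests on 45 to 197 reads per library.

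The gene nas-11, on chromosome X from 6713577 to 6716357, rose as well. It had 93.1, 94.0, 73.6, 63.8 and 43.1 CPM in chd-7;daf-2, against 19.03, 32, 26.2, 11.8 and 12.3 CPM in daf-2. The genotypes did not overlap, and as in nas-9 the lowest double mutant library was replicate 5 and the lowest daf-2 libraries were replicates 4 and 5. It rose (log2 fold change 1.86 ± 0.31, edgeR adjusted p = 0.00111). It shares 163 exonic bases with smf-2 on the other strand, and the strand setting of the counting is not known.

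The gene nas-10, on the minus strand of chromosome X from 10960914 to 10963503, went the other way. It had 50.02, 63.98, 78.5, 82.7 and 110.2 CPM in chd-7;daf-2, against 194.6, 204.2, 164.8, 171.8 and 169.3 CPM in daf-2. The genotypes did not overlap, and double mutant replicate 5 was the library nearest to daf-2. It fell (log2 fold change -1.23 ± 0.18, edgeR adjusted p = 0.00049).

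The remaining called genes had lower levels. The gene nas-29, on chromosome II from 5138519 to 5142036, had 7.99, 8.36, 7.06, 8.39 and 8.31 CPM in chd-7;daf-2, against 8.19, 11.7, 13.9, 14.2 and 16.2 CPM in daf-2. The double mutant libraries were nearly level, with a coefficient of variation of 6.99%, against 23.8% in daf-2, and daf-2 replicate 1 lay among them. It fell (log2 fold change -0.67 ± 0.18, edgeR adjusted p = 0.0119). It shares 50 exonic bases with F58A6.2 on the other strand.

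The gene nas-30, on chromosome I from 938483 to 947710, had 3.33, 1.73, 6.23, 5.45 and 2.49 CPM in chd-7;daf-2, against 1.79, 2.36, 0.732, 1.31 and 1.31 CPM in daf-2. The highest values belonged to double mutant replicates 3 and 4, and replicate 2 lay inside the daf-2 range. It rose (log2 fold change 1.34 ± 0.40, edgeR adjusted p = 0.0212), a call that did not hold without double mutant replicate 3 (adjusted p = 0.0567).

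The gene nas-33, on the minus strand of chromosome X from 6451698 to 6455257, had 2.37, 2.999, 1.49, 1.31 and 0.851 CPM in chd-7;daf-2, against 0.683, 0.295, 1.007, 0.415 and 0.131 CPM in daf-2. The ranges overlapped through double mutant replicate 5 and daf-2 replicate 3. It rose (log2 fold change 1.76 ± 0.47, edgeR adjusted p = 0.0136), on 101 reads in the double mutants and 29 in daf-2. It reached the filter level in 4 double mutant libraries and 1 daf-2 library, so it was tested mainly through the genotype where it was higher. It shares 85 exonic bases with K10C2.6 on the other strand.

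**Figure D3:**
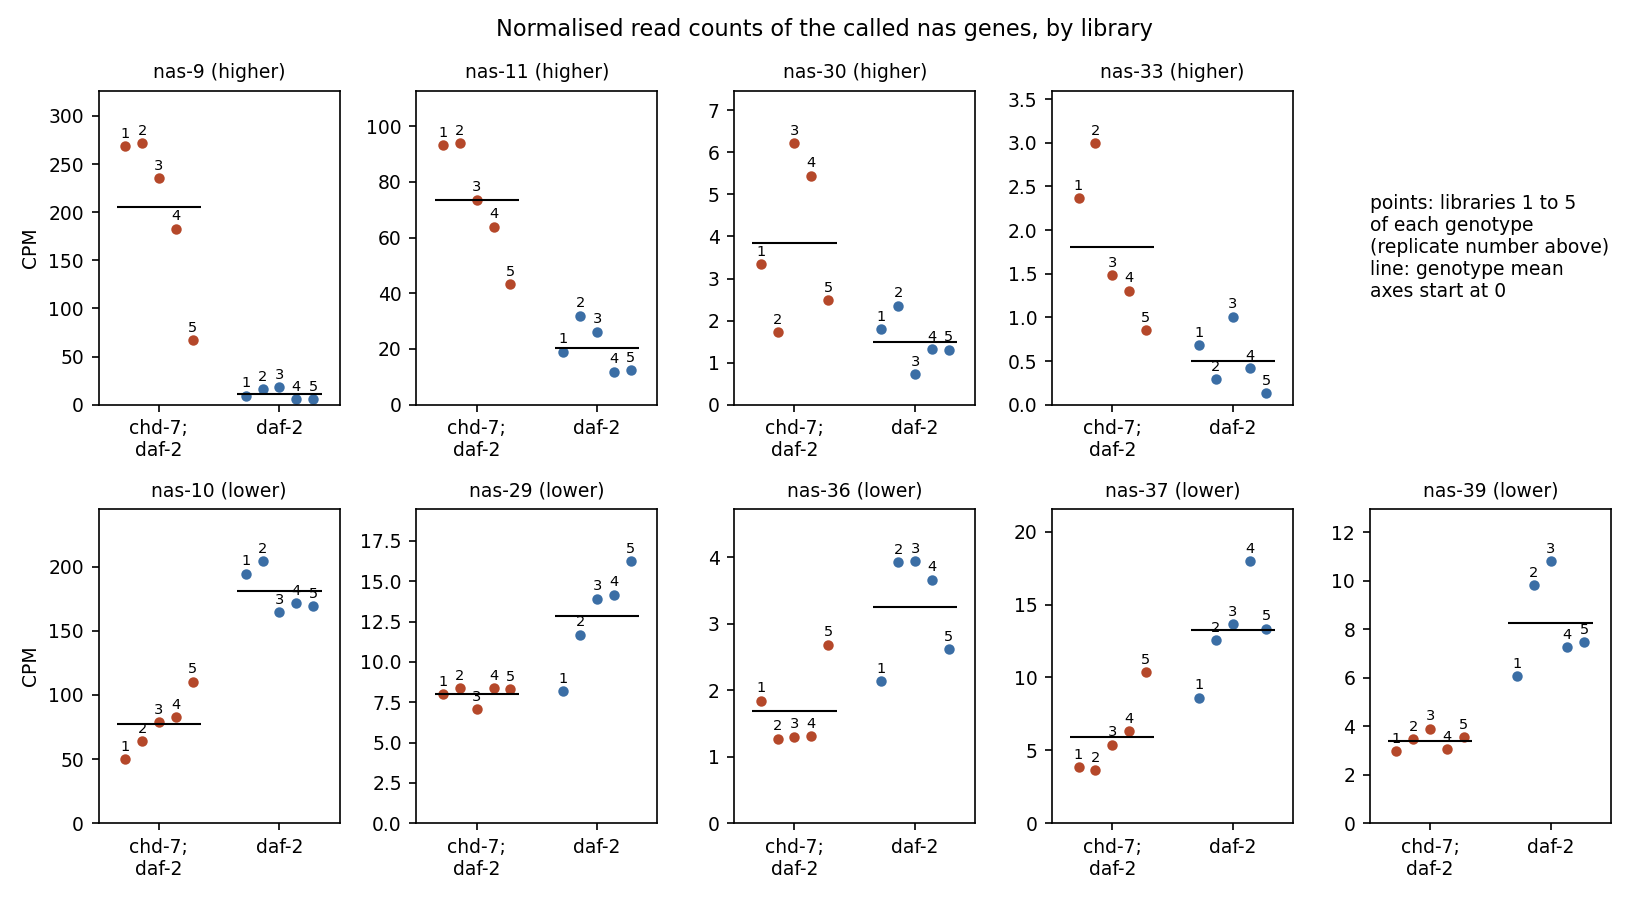
CPM of the 9 called nas genes in each library, with the replicate number above each point and a line at the genotype mean (5 libraries each, axes from 0). In nas-9, nas-10, nas-11, nas-33, nas-36 and nas-37 the chd-7;daf-2 library nearest to the daf-2 mean is replicate 5, at 67.3 CPM in nas-9 and 110.2 CPM in nas-10.

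Without the 3 libraries that stand apart, nas-9, nas-10, nas-11, nas-33 and nas-39 remained called, 3 higher and 2 lower. Over all genes, 4523 of 12499 tested were called with all libraries and 3603 of 12828 without these 3. The log2 fold change of nas-9 was then 4.92 and that of nas-39 was -1.001. The log2 fold change of nas-37 was then -1.19 (adjusted p = 0.0533) and that of nas-29 -0.70 (adjusted p = 0.0519), both near their values over all libraries. That of nas-36 was -0.66 (adjusted p = 0.191) and that of nas-30 was 1.201 (adjusted p = 0.0814).

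Among the 5 tested members that were not called, nas-31 was the most abundant. It had 30.6, 38.5, 40.6, 37.04 and 46.2 CPM in chd-7;daf-2, against 16.5, 34.9, 34.6, 37.3 and 33.0 CPM in daf-2. The ranges overlapped, and daf-2 replicate 1 lay apart below. Its log2 fold change was 0.31 ± 0.20 (adjusted p = 0.243). The gene nas-32 averaged 14.7 ± 2.80 CPM in the double mutants and 18.5 ± 7.40 CPM in daf-2 (log2 fold change -0.33 ± 0.26, adjusted p = 0.332), with daf-2 replicates 4 and 5, at 25.3 and 27.2 CPM, above all other libraries.

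The gene nas-8 averaged 7.94 ± 1.03 CPM in the double mutants and 7.04 ± 1.29 CPM in daf-2, a log2 fold change of 0.17 ± 0.17 (adjusted p = 0.442). For nas-5 the means were 2.75 ± 0.625 CPM in the double mutants and 4.11 ± 1.78 CPM in daf-2, a log2 fold change of -0.58 ± 0.30 (adjusted p = 0.156). It passed the threshold without daf-2 replicate 1 (adjusted p = 0.0402). The grinder gene nas-7 averaged 1.77 ± 0.478 CPM in the double mutants and 2.15 ± 0.774 CPM in daf-2, a log2 fold change of -0.26 ± 0.30 (adjusted p = 0.521), and its sign turned without the 3 libraries that stand apart (0.27, adjusted p = 0.522). A miss of the threshold does not show that these genes were equal between genotypes.

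The nas reads differed between genotypes in their make-up, with nas-9 leading in 4 double mutant libraries and nas-10 in all others. Summed over the 36 members, the level was 452.1 ± 75.8 CPM in the double mutants and 321.8 ± 27.8 CPM in daf-2 (SD, n = 5 each), with a range of 333 to 522.5 CPM in the double mutants and 293 to 367 CPM in daf-2. Without nas-9 the sums were 247 ± 14.1 CPM in the double mutants and 310.8 ± 24.7 CPM in daf-2, and they did not overlap, with 227 to 266 CPM in the double mutants and 284 to 350 CPM in daf-2. They still hold nas-10, at 77.1 ± 22.6 CPM in the double mutants and 180.9 ± 17.4 CPM in daf-2, a wider gap than between the sums. They therefore do not show that the other members were lower as a group. With nas-10 also set aside, the mean sum was higher in the double mutants. It then held nas-11, at 73.5 ± 21.3 CPM in the double mutants and 20.3 ± 8.79 CPM in daf-2. These sums are given as a description, with no test.

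As a share of the summed level, which is not corrected for gene length, nas-9 made up 54.1%, 52.1%, 48.4%, 43.2% and 20.2% in chd-7;daf-2 replicates 1 to 5, against 3.18%, 4.44%, 5.57%, 1.73% and 1.92% in daf-2. The share of nas-10 was 10.1%, 12.2%, 16.2%, 19.5% and 33.1% in chd-7;daf-2, against 66.4%, 55.7%, 50.9%, 53.8% and 55.2% in daf-2. In chd-7;daf-2 replicate 5, nas-10 thus held a larger share than nas-9, as in every daf-2 library, while in the other 4 double mutant libraries nas-9 was the larger. The ratio of nas-9 to nas-10 was 0.61 in double mutant replicate 5 and 2.21 to 5.36 in the other double mutant libraries, against 0.0322 to 0.109 in daf-2. Together nas-9, nas-10, nas-11 and nas-31 held 80.2% to 89.7% of the nas reads in the double mutants and 70.9% to 81.7% in daf-2.

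**Figure D4:**
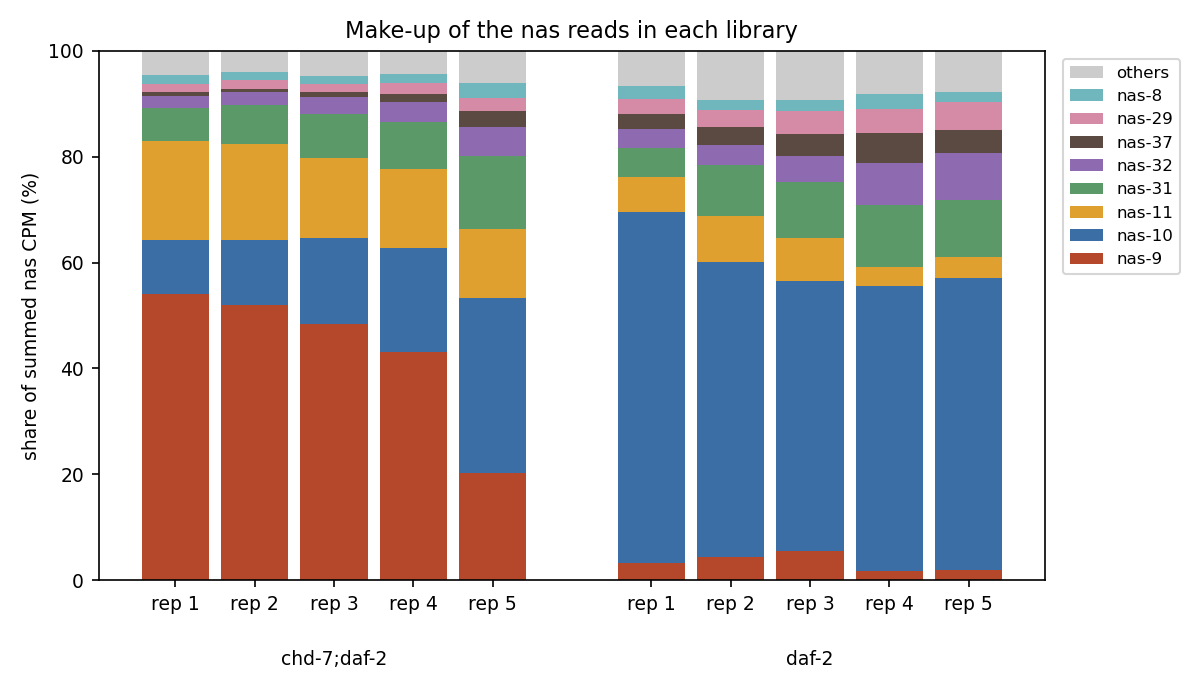
Share of the summed nas CPM held by each of the 8 leading genes and by the others together, in each of the 10 libraries. The largest block is nas-9 in chd-7;daf-2 replicates 1 to 4 and nas-10 in chd-7;daf-2 replicate 5 and in all daf-2 libraries.

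Of the 22 members under the filter, 8 had at least 10 reads in some library, and their means ran from 0.222 to 1.24 CPM in the double mutants and from 0.33 to 1.82 CPM in daf-2. They were nas-1, nas-4, nas-6, nas-13, nas-23, nas-25, nas-28 and nas-38. The gene nas-28 was the most read of them in daf-2. It had 0.439, 0.818, 0.650, 0.654 and 0.393 CPM in chd-7;daf-2, against 0.853, 0.982, 0.824, 3.32 and 3.14 CPM in daf-2. The highest double mutant library, at 0.818 CPM, lay just under the lowest daf-2 library, at 0.824 CPM, and daf-2 replicates 4 and 5 stood well above the rest. With no filter its log2 fold change was -1.63 (adjusted p = 0.0222), and with DESeq2 it was -1.64 (adjusted p = 0.0107).

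The other 14 had at most 7 reads in any library and 127 reads in all. Among them are the members of a pair of gene arrays on chromosome V. The genes nas-16, nas-18, nas-17 and nas-19 lie from 11392320 to 11402710, with 1 other coding gene inside this span, and together had 2 reads in the 5 double mutant libraries and 1 read in the 5 daf-2 libraries. The genes nas-20, nas-21 and nas-22 lie from 11470925 to 11478007, again with 1 other coding gene inside, and together had 4 reads in the double mutants and 16 in daf-2. A count of 0 allows a level of up to 0.196 to 0.393 CPM, by library (3 reads, counting error only).

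No read was listed in any library for nas-19 and nas-2. The annotation holds 2 loci named nas-2, both on the plus strand of chromosome V, from 2466762 to 2468504 and from 2358801 to 2360543. Each spans 1743 bases with 819 exonic bases, and the coding neighbours of both carry the same names. Reads that align to more than one place were tallied apart from the genes in these tables, so the 0 of nas-2 cannot be read as a lack of RNA.

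By position, chromosome V held 13 of them, of which 3 were tested and 1, nas-9, was called. Chromosome X held 8, of which 5 were tested and called, with nas-11 and nas-33 higher and nas-10, nas-37 and nas-39 lower. On chromosome I all 3 members were tested, with nas-30 higher and nas-36 lower, and on chromosome III none of 3 passed the filter. Over all chromosomes 36.2% of tested genes were called. The called share of all genes was not taken by chromosome, so these counts do not show a difference between chromosomes.

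A further 3 astacin genes have names of another kind. The gene toh-1, a relative of tolloid and of the hatching protease, lies on chromosome III from 3804772 to 3809030 and had 73.2, 57.4, 91.3, 88.8 and 63.9 CPM in chd-7;daf-2, against 36.7, 31.1, 32.04, 34.7 and 36.1 CPM in daf-2. The genotypes did not overlap. It rose (log2 fold change 1.13 ± 0.13, edgeR adjusted p = 0.000118). The hatching protease gene hch-1, with 6 reads in all in the double mutants and 11 in daf-2, was not tested.

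The gene dpy-31, which encodes the procollagen C-proteinase of the cuticle, was listed at 0 in all 10 libraries. So was the neuronal secretion gene unc-18, although the 8 tested neuronal markers averaged 28.7 to 1302 CPM in the double mutants and 26.5 to 1281 CPM in daf-2. A 0 in all libraries is therefore given as a listing and not as a lack of RNA.

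Moulting genes outside the family mostly rose while nas-36 and nas-37 fell. Of 19 tested genes that build, process or time the cuticle, 13 rose and none fell, 68.4% against 17.9% of all tested genes called higher. By unadjusted p under 0.05, 14 were higher and 0 lower, and limma called 13 higher and 0 lower. DESeq2, which tested 21 of the list, called 14 higher and 0 lower. Without the 3 libraries that stand apart 12 rose. The list was written with earlier results of these data known. The apical matrix gene noah-1 rose to 31.7 ± 6.34 CPM in chd-7;daf-2, against 9.01 ± 1.55 CPM in daf-2 (log2 fold change of 1.81 ± 0.17, edgeR adjusted p = 2.52e-05). The cuticle peroxidase gene mlt-7 rose to 81.8 ± 24.6 CPM in chd-7;daf-2, against 26.3 ± 3.07 CPM in daf-2 (1.64 ± 0.20, adjusted p = 0.000163). The moulting timers nhr-23 and nhr-25, which encode nuclear hormone receptors, rose too, nhr-23 with a log2 fold change of 0.97 ± 0.22 (adjusted p = 0.00599) and nhr-25 with one of 0.82 ± 0.23 (adjusted p = 0.0157, and 0.105 without the 3 libraries that stand apart). The protease inhibitor gene mlt-11 had a log2 fold change of 0.72 ± 0.78 (adjusted p = 0.493), with 26.5 CPM in double mutant replicate 5 and 2.37 to 3.999 CPM in the other double mutant libraries. Replicate 5 was also the highest double mutant library in acn-1, fbn-1, noah-2, nhr-23, nhr-25, ptr-4, pan-1 and blmp-1, as in nas-36 and nas-37. In lrp-1, noah-1, mlt-7 and nekl-2, which rose too, replicate 5 was the lowest double mutant library.

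**Figure D5:**
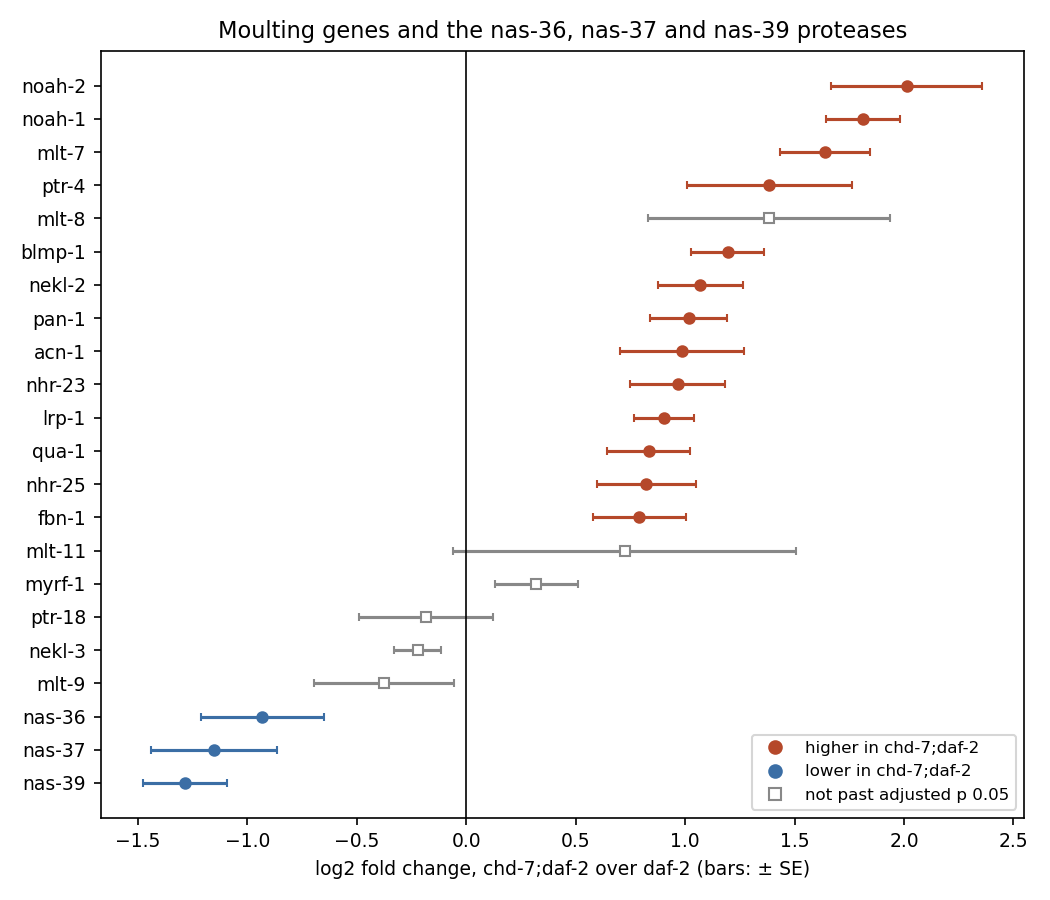
Log2 fold change, chd-7;daf-2 over daf-2, of 19 tested moulting and cuticle genes and of nas-36, nas-37 and nas-39, with bars for ± SE; filled circles are called and open squares are not. The 13 called genes of the list lie between 0.79 (fbn-1) and 2.01 (noah-2), and the 3 nas genes lie between -1.29 and -0.93.

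In collagen maturation, 4 of 10 tested genes rose and none fell in edgeR, mlt-7 among those that rose. This is 40% called, near the 36.2% of all tested genes, but all were higher, against 17.9% of all tested genes called higher. Leaving out 1 library at a time gave 3 to 4 higher. By unadjusted p under 0.05, 5 were higher and 1 lower, DESeq2 called 4 higher and 0 lower, and limma called 3 higher and 0 lower. The dual oxidase gene bli-3 and its tetraspanin partner gene tsp-15, whose products serve tyrosine cross-linking of the cuticle, rose with log2 fold changes of 1.15 ± 0.13 for bli-3 (adjusted p = 8.34e-05) and 1.41 ± 0.17 for tsp-15 (adjusted p = 0.000149). The exons of both genes overlap genes on the other strand. Of 16 tested metalloproteases of other families, 5 rose and 2 fell, 43.8% against 36.2% of all tested genes. Without the 3 libraries that stand apart 3 rose and 2 fell, and without double mutant replicate 1 or 3 alone 3 rose and 1 fell. The matrix metalloprotease gene zmp-3 rose (log2 fold change 1.23 ± 0.13, edgeR adjusted p = 5.17e-05), and the neprilysin gene nep-1 rose as well (1.203 ± 0.31, adjusted p = 0.0131, and 0.0732 without the 3 libraries that stand apart). The ADAMTS gene adt-2 fell (log2 fold change -1.13 ± 0.12, edgeR adjusted p = 6.03e-05). The matrix metalloprotease gene zmp-6 fell (log2 fold change -0.86 ± 0.30, edgeR adjusted p = 0.0431), a call lost without any 1 of 8 libraries, all but double mutant replicate 2 and daf-2 replicate 5. The log2 fold change of zmp-6 was -0.54 (adjusted p = 0.258) without the 3 libraries that stand apart.

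Counts of called tissue markers are read here against the 36.2% of all tested genes that were called. They were above it for body wall muscle, germline, intestine and vulva, near it for the hypodermis and below it for pharynx, neurons and dauer markers. The summed level of 7 body wall muscle markers was 4174 to 6032 CPM in the double mutants and 1021 to 2343 CPM in daf-2, and 6 were called higher (85.7%). The other, hlh-1, had a log2 fold change of -0.50 ± 0.22 (edgeR adjusted p = 0.104). Without daf-2 replicate 4 or 5, 1 marker of this list was called lower. The largest part of the sum was unc-54, with means of 2752 CPM in the double mutants and 815 CPM in daf-2. For 9 germline markers the summed level was 90.2 to 329.7 CPM in the double mutants and 286 to 619 CPM in daf-2, and 8 were called lower (88.9%). That germline count was 4 without double mutant replicate 1 or daf-2 replicate 3, 5 without double mutant replicate 3 or 5, and 9 without the 3 libraries that stand apart.

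For 9 intestinal markers the summed level was 318 to 484 CPM in the double mutants and 521 to 686 CPM in daf-2, with 2 called higher and 4 lower (66.7%). For 7 markers of the vulva, uterus and spermatheca it was 125 to 146 CPM in the double mutants and 175 to 541 CPM in daf-2, with 2 of 6 tested markers called higher and 2 lower (66.7%). The lower ones were ule-1 and ule-2, with log2 fold changes of -5.1 and -4.54, and the higher ones vab-23 and fos-1, with 0.38 and 0.56. In daf-2 replicates 2 and 3, ule-1 alone had 375 and 343 CPM. Among fits that left out a single library, 2 were higher only without double mutant replicate 4, daf-2 replicate 1 or daf-2 replicate 5. In the other such fits 1 was higher, as it was without the 3 libraries that stand apart. For 9 hypodermis and seam markers the summed level was 702 to 948 CPM in the double mutants and 533 to 757 CPM in daf-2, and 3 of 8 tested markers rose (37.5%). None fell, so this is 37.5% called higher, against 17.9% of all tested genes called higher. Leaving out 1 library at a time gave 2 to 3 higher.

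For 12 pharynx and pharyngeal gland markers the summed level was 65.5 to 134.9 CPM in the double mutants and 36.7 to 109.6 CPM in daf-2. None of 5 tested markers was called or had an unadjusted p under 0.05 in edgeR, and limma called 0. Fits that tested more of the list called 1 higher, DESeq2 among 10 tested and edgeR with no filter among 11. The gland gene phat-1 was listed at 0. For 9 neuronal markers it was 3066 to 3857 CPM in the double mutants and 2708 to 3916 CPM in daf-2. Of 8 tested, the syntaxin gene unc-64 was called higher (12.5%), a call lost without any 1 library except daf-2 replicate 2. For the 7 dauer-associated markers it was 2968 to 4668 CPM in the double mutants and 3346 to 4858 CPM in daf-2. Most of this is icl-1, with means of 2341 CPM in the double mutants and 2813 CPM in daf-2, and mtl-1, with 1043 and 530 CPM. The sums therefore say little of the other dauer-associated markers. Of the 7 markers the cuticlin gene cut-1 was called lower (14.3%), with 3.18 ± 2.25 CPM in the double mutants, against 14.6 ± 10.7 CPM in daf-2 (log2 fold change of -2.16 ± 0.74, edgeR adjusted p = 0.0406). The cut-1 call was lost without any 1 of 8 libraries, all but daf-2 replicates 1 and 3, and without the 3 libraries that stand apart (adjusted p = 0.0882). The part of these tissue markers in the nas results was not tested.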

How the data were processed

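The authors deposited 1 table of whole-number read counts per gene for each of 10 libraries (5 per genotype), with no scaling. STAR 2.5.4a and HTSeq 0.9.1 are among the tools in the submitters' processing notes. For the build, annotation and strand setting the sources used here give nothing. HTSeq's tally rows, among them 5.53% to 11.2% of reads with several alignments, were left out of library sizes and tests.

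Counts were analysed with edgeR 4.0.16 in R 4.3.3: filterByExpr (minimum count 10, minimum total 15), TMM scaling and a robust quasi-likelihood F test with no covariate, two-sided, adjusted over all tested genes by Benjamini-Hochberg. The SE is the log2 fold change divided by the square root of F. Alternatives used DESeq2 1.42.0, limma 3.58.1 (voom), other scalings and filters, the replicate number as a factor, and left-out libraries.

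Positions and exonic lengths are those of Ensembl release 115 (WBcel235), in which all 36 members were found by name. That release may differ from the annotation used for counting. At least 50 shared exonic bases were noted for 7 members. The members and lists were chosen with earlier results of these data known. By rule, every called member and nas-9, nas-36 to nas-39 and the 3 members highest per kilobase are described, with up to 2 called genes per direction from other lists. The genes nas-28, nhr-23, nhr-25, mlt-11, cut-1, unc-64, ule-1, ule-2, vab-23, fos-1, icl-1, mtl-1, gld-1, hlh-1 and unc-54 were chosen after their values were seen. So were the further moulting genes named for their level in double mutant replicate 5. No sequences are shown.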

Additional observations from a re-analysis of the deposited data

Results flagged for a closer look

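The level of nas-31 in daf-2 replicate 1, 16.5 CPM, lay far from the other 4 daf-2 libraries, which held 33.0 to 37.3 CPM. Of 28 groups of 5 libraries checked for the tested nas genes, this was the 1 with such a gap, and chance alone gives it in about 1 group in 20. Without that library the log2 fold change of nas-31 was 0.14 (adjusted p = 0.371).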

How the results depend on the processing

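Of the 9 called members, nas-9, nas-10, nas-11 and nas-39 kept their call and direction in all 19 alternatives. The call of nas-33 held in the 18 alternatives that tested it. In the main fit it passed the filter mainly through the double mutant libraries, where it was higher, so this is not separate support for the rise. With the stricter filter (at least 5 CPM in 5 libraries) 9 members were tested and 2 were called higher and 4 lower, since nas-30, nas-33 and nas-36 were not tested. Over all genes 3464 of 9777 were called with that filter. With no filter 34 members were tested, and nas-28 was added to the lower ones, with 4497 of 18710 genes called. Without the 3 libraries that stand apart, 2 members were called lower, and the log2 fold change of nas-7 was 0.27, on fewer libraries. Leaving out 1 library at a time gave 3 to 4 members called higher and 4 to 6 called lower, with 3358 to 4617 genes called in all, against 4523. Adding the replicate number as a block gave 4764 calls over all genes, 3 members higher and 5 lower, with nas-30 at 1.29 (adjusted p = 0.059), and also ended the calls of zmp-6 (adjusted p = 0.0878), cpi-1 (0.134) and cut-1 (0.141). Correlations of deviations between libraries of the same number ran from -0.19 to 0.33, with 3 of 5 above 0.1, and between different numbers from -0.30 to 0.34, so a pairing by number was not established. The other scalings kept all 9 calls. Members under about 1 CPM are limited by depth.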

Other observations

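Other proteases and protease inhibitors were also measured. Of 15 tested aspartic and cysteine proteases of the gut and lysosome, 4 rose and 1 fell, 33.3% called against 36.2% of all tested genes. The aspartic protease gene asp-3 rose to 454 ± 167.2 CPM in the double mutants, against 131 ± 66.0 CPM in daf-2 (SD, n = 5 each, log2 fold change of 1.79 ± 0.38, adjusted p = 0.0049). Its relative asp-4 rose to 530.3 ± 92.4 CPM in the double mutants, against 282 ± 75.7 CPM in daf-2 (0.91 ± 0.19, adjusted p = 0.00432). The cathepsin L gene cpl-1 fell to 575 ± 39.05 CPM in chd-7;daf-2, against 801 ± 127.1 CPM in daf-2 (-0.48 ± 0.12, adjusted p = 0.0107). Without the 3 libraries that stand apart, 6 of these proteases rose and 1 fell.

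Of 10 tested protease inhibitor genes, 5 rose and 1 fell, 60% called against 36.2% of all tested genes, but without daf-2 replicate 3 alone 3 rose. The serpin genes srp-2 and srp-3 both rose, with log2 fold changes of 1.28 ± 0.21 for srp-2 and 2.22 ± 0.37 for srp-3 (adjusted p = 0.00103 each). The cystatin gene cpi-1 fell, with a log2 fold change of -1.40 ± 0.43 (adjusted p = 0.028), and had 835 and 766 CPM in daf-2 replicates 2 and 3 and 194 CPM or less in every double mutant library. Its call did not hold without double mutant replicate 1, 2 or 3 or without daf-2 replicate 2 or 3. Without the 3 libraries that stand apart its log2 fold change was -0.39 (adjusted p = 0.144), and 3 inhibitor genes rose.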
